A study of Mus musculus with 7 samples.

Results

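The genes described here are the 6 GATA transcription factor genes of the mouse and their 2 FOG cofactor genes, in the sinoatrial node, where the heartbeat starts. They were chosen by name as the rows Gata1, Gata2, Gata3, Gata4, Gata5, Gata6, Zfpm1 and Zfpm2, and all 8 were found among 15965 genes with a completed comparison. The library of interest (the Cre library) came from Sv129 mice with floxed alleles of Baf250a and Hcn4CreERT2, taken 6 days after tamoxifen, and it was set against the day-6 control library from Sv129 mice with the same floxed alleles and no Cre. Both were poly-A RNA libraries of node tissue from mice 3 weeks after birth. Baf250a (gene symbol Arid1a) is a DNA-binding subunit of BAF, a chromatin remodelling complex, and Hcn4CreERT2 is a tamoxifen-dependent recombinase driven from the Hcn4 gene, which pacemaker cells express. The deletion is thus aimed at one cell population of a mixed tissue. The number and sex of the mice behind each library, and whether the controls received tamoxifen, are not stated in the labels. The time series, 5 further libraries, was not analysed here. There was 1 library per genotype, so the differences below are descriptions without replicates and were not tested.

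Expression is given as FPKM, fragments per kilobase of transcript and by the total of mapped fragments, so levels can be compared between genes per length. The read depth behind the values is unknown. Ratios are log2 of (FPKM + 1) in the Cre library over (FPKM + 1) in the control library, and 2-fold on that scale was the limit for calling a gene higher or lower. A gene counts as measured if its mean over both libraries reached 1 FPKM. In all, 13410 genes were measured, with a median log2 ratio of -0.07. Arid1a itself had 12.3 FPKM in the Cre library and 34.9 FPKM in the control library. Of the genes used as markers of the node, the pacemaker channel gene Hcn4 had 0.719 FPKM in the Cre library and 0.605 FPKM in the control library. Hcn4 was thus below the minimum and did not count as measured. Isl1 had 2.02 FPKM in the Cre library and 1.69 FPKM in the control library. Tbx3 had 2.59 FPKM in the Cre library and 0.996 FPKM in the control library, and Tbx18 had 7.03 FPKM in the Cre library and 4.83 FPKM in the control library. Sex-linked genes also separated the libraries, with Xist at 93.2 FPKM in the Cre library and 0.379 FPKM in the control library, so genotype and sex cannot be told apart.

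GATA factors are zinc finger proteins that bind the DNA letters GATA. They are usually placed in a blood group, Gata1 to Gata3, and a group of heart and endoderm, Gata4 to Gata6. Gata1 drives red blood cell and megakaryocyte formation, Gata2 acts in blood stem cells, mast cells and endothelium, and Gata3 is required for T cell development and type 2 helper T cells. Gata4 and Gata6 work with Nkx2-5 and Tbx5 on genes of heart muscle, and Gata5 is known from endocardium and epicardium. The FOG proteins bind the amino-terminal zinc finger of GATA factors and recruit the NuRD corepressor complex. Zfpm1 (FOG-1) is the partner of Gata1 in blood, and Zfpm2 (FOG-2) is the partner of Gata4 in the heart.

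Of the 8 genes, 7 were measured and Gata1 was not. Gata3 was the one measured member that was at least 2-fold lower in the Cre library, and 0 were at least 2-fold higher. Among all measured genes 10.4% were at least 2-fold lower, 6.08% were at least 2-fold higher and 16.5% were past 2-fold in either direction. One of 7 is close to that share, so the count by itself sets the members apart in neither direction. Of the measured members, 5 lay above equal expression in the Cre library and 2 lay below it, against 46.0% above among all measured genes. Of the 8 genes, 0 were called significant in the authors' deposited table, which called 0.564% of all genes. With 1 library per genotype, the p-values and q-values of that table cannot measure variation between libraries of the same genotype.

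**Figure D1:**
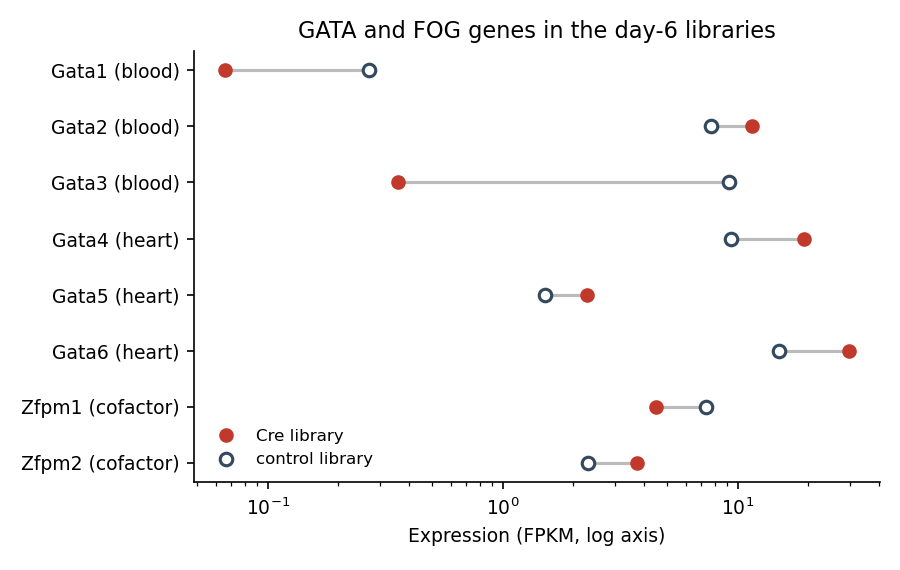
Expression of each GATA and FOG gene (FPKM, log axis) in the Cre library (filled points) and the control library (open points), 1 library each. Gata3 shows the widest gap, at 0.357 FPKM in the Cre library and 9.17 FPKM in the control library, and the lines of Gata4 and Gata6 are of nearly the same length.

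Gata3 carried most of the difference within the blood group. It had 0.357 FPKM in the Cre library and 9.17 FPKM in the control library, giving a log2 ratio of -2.91. Without the pseudocount the control value was 25.7 times the Cre value. Gata3 therefore stood at the 52.8 percentile of all gene levels in the control library, but at the 8.25 percentile in the Cre library. It passed the minimum of 1 FPKM through its control value alone. Its ratio lay among the lowest 2.04% of measured genes (274 genes at or below it). In the authors' deposited table Gata3 had a log2 fold change of -4.68 with p = 0.0024 and q = 0.139, the smallest q-value among the members. The gene lies on mm9 chromosome 2 from 9778704 to 9800227.

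Gata2 differed the other way from Gata3. It had 11.5 FPKM in the Cre library and 7.71 FPKM in the control library, giving a log2 ratio of 0.52 that was below the 2-fold rule. The gap between the log2 ratios of Gata2 and Gata3 was 3.42. In the Cre library Gata2 was 32.1 times as high as Gata3, while in the control library it was 0.841 times as high. The order of these neighbours by level was thus exchanged between the libraries, and no spread over samples is known for either. Gata2 lies on mm9 chromosome 6 from 88148657 to 88157026.

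The start regions of Gata2 and Gata3 are shown because they are the 2 measured blood members, and their ratios had opposite signs. The sequences are from RefSeq (GRCm38.p6), from 250 bases before to 50 bases after a start site, and are printed 5′ to 3′. Capitals mark a GATA site, for which both strands were searched. The forms searched were AGATAA and AGATAG, and likewise TGATAA and TGATAG. The Gata3 window is chr2:9878551-9878850 on the minus strand. The Gata2 windows, on the plus strand, are chr6:88193641-88193940 for start 1 and chr6:88198414-88198713 for start 2.
Gata3: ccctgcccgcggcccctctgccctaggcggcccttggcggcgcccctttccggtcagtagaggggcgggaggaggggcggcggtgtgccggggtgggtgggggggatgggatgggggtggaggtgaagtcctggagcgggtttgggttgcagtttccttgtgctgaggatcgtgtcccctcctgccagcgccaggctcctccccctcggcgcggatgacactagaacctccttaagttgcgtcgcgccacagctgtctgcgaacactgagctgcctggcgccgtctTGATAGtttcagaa
Gata2, start 1: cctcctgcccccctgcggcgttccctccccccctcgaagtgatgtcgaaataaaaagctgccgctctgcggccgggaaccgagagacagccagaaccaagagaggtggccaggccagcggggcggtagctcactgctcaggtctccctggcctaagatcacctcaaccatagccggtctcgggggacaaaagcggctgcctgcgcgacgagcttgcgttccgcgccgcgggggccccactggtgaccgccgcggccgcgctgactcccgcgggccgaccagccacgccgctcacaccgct
Gata2, start 2: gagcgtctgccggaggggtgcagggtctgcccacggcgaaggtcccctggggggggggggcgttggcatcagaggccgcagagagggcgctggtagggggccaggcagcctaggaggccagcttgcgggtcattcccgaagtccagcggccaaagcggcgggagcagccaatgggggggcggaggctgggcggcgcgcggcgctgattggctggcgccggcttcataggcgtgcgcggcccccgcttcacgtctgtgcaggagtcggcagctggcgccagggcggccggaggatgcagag
One match was found in the Gata3 window, TGATAG at base 287 of 300, which lies after the start site. No match was found in the Gata2 windows. The same search matched 29.8% of 32851 windows of equal length over all genes. The 3 windows were rich in G and C, at 67.3% for Gata3 and 69.3% and 73.7% for Gata2, against a median of 52.7% over all windows. The windows of Gata1, Gata5 and Zfpm1 were also searched, and none held a match. No window of Gata4, Gata6 or Zfpm2 is reported here.

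Gata1 was barely detected in either library. It had 0.0660 FPKM in the Cre library and 0.270 FPKM in the control library, at the 1.06 and the 6.55 percentile of gene levels there. Its log2 ratio on the FPKM + 1 scale was -0.25, whereas the authors' deposited table gave -2.03 with a q-value of 0.999. The 2 scales differ this much because both values were far below 1 FPKM. Gata1 lies on mm9 chromosome X from 7536385 to 7544941.

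Gata6 and Gata4 were the most abundant GATA genes in both libraries and differed by almost the same ratio. Gata6 had 29.6 FPKM in the Cre library and 15.0 FPKM in the control library, giving a log2 ratio of 0.94. Gata4 had 19.1 FPKM in the Cre library and 9.40 FPKM in the control library, giving a log2 ratio of 0.95. These ratios were 0.02 apart, and both fell just short of the 2-fold rule. The quotient of the plain values was 2.03 for Gata4 and 1.97 for Gata6. The level of Gata6 was 1.55 times that of Gata4 in the Cre library and 1.60 times in the control library, so their proportion hardly moved. Among measured genes, 6.72% had a ratio as high as that of Gata4 and 7.08% as high as that of Gata6. In the authors' deposited table p was 0.217 for Gata4 and 0.215 for Gata6, with q-values of 0.999. Gata4 lies on mm9 chromosome 14 from 63817751 to 63864097 and Gata6 on chromosome 18 from 11052507 to 11085633.

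Gata5 was the weakest heart member. It had 2.29 FPKM in the Cre library and 1.51 FPKM in the control library, giving a log2 ratio of 0.39. The direction did not hold on every scale, since it was -0.04 when ratios were centred on fibroblast, endothelial, adipocyte and epicardial genes (the tissue-list centring). In the authors' deposited table Gata5 had a p-value of 0.585. It lies on mm9 chromosome 2 from 180059792 to 180069384.

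The FOG genes differed in opposite directions. Zfpm1 had 4.51 FPKM in the Cre library and 7.31 FPKM in the control library, giving a log2 ratio of -0.59. Zfpm2 had 3.73 FPKM in the Cre library and 2.31 FPKM in the control library, giving a log2 ratio of 0.51. Neither passed the 2-fold rule, and the gap between these ratios was 1.11. Zfpm1 was 1.21 times as high as Zfpm2 in the Cre library and 3.16 times as high in the control library. Zfpm2 stayed well below its partner, with Gata4 at 5.13 times its level in the Cre library and 4.07 times in the control library. In the authors' deposited table both had q-values of 0.999. Zfpm1 lies on mm9 chromosome 8 from 124806040 to 124861147, and Zfpm2 on chromosome 15 from 40486587 to 40936138. None of the 8 loci overlapped that of another gene in the table.

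**Figure D2:**
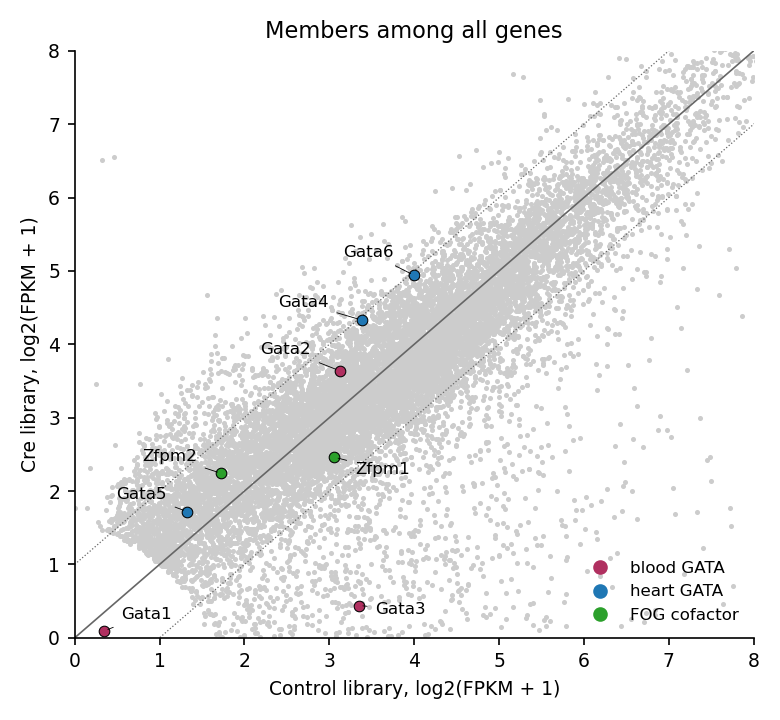
Levels of all measured genes (grey) and of the 8 GATA and FOG genes (coloured), as log2(FPKM + 1) in the Cre library (vertical) and the control library (horizontal), with both axes ending at 8. The solid line is equal expression and the dotted lines are 2-fold; Gata4 and Gata6 lie just inside the upper dotted line, and Gata3 lies far below the lower one.

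The makeup of GATA expression therefore shifted between the libraries. The 6 GATA genes summed to 62.9 FPKM in the Cre library and 43.1 FPKM in the control library. Heart members made up 81.1% of this sum in the Cre library and 60.2% in the control library. Gata3 made up 0.567% in the Cre library and 21.3% in the control library, while the share of Gata2 was nearly equal, at 18.2% and 17.9%. The gap in the heart share thus rests on Gata3, which had 0.357 FPKM in the Cre library, and also on the heart members. They summed to 51.1 FPKM in the Cre library and 25.9 FPKM in the control library. By level the order in the Cre library was Gata6, Gata4, Gata2, Gata5, Gata3 and Gata1. In the control library it was Gata6, Gata4, Gata3, Gata2, Gata5 and Gata1, where Gata4 and Gata3 were nearly level. These shares are within a library, so a common scaling factor leaves them as they are.

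**Figure D3:**
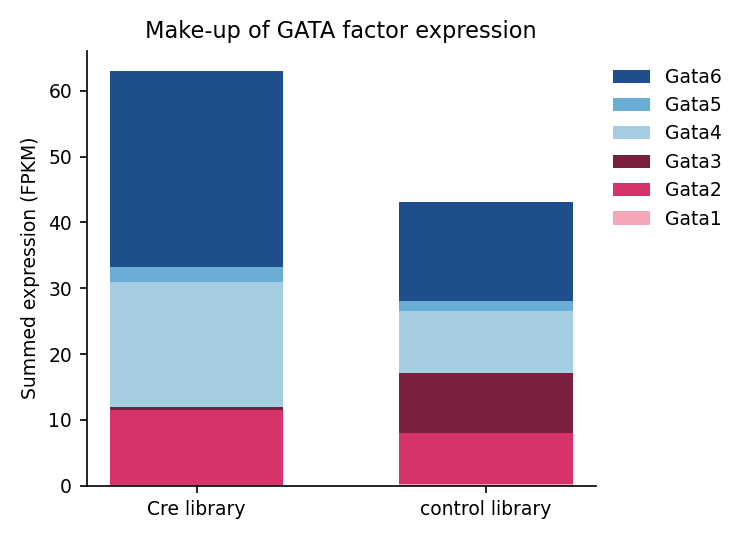
Summed FPKM of the 6 GATA genes in the Cre library and the control library, stacked by gene (heart members in blue, blood members in red). Gata3 fills 0.567% of the Cre bar and 21.3% of the control bar, and Gata1 is too low to be seen.

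As groups, the heart members had a median log2 ratio of 0.94 (range 0.39 to 0.95), and the measured blood members had a median of -1.19 (range -2.91 to 0.52). The difference of the medians was 2.13, but it rests on Gata3. With Gata1 kept in, it was 1.19. With a minimum of 5 FPKM, which leaves Gata3 and Gata5 out, it was 0.43. The ranges of the groups overlapped, since Gata2 was above Gata5.

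Gata3 differed in the same direction as most of the T cell genes listed with it. Of 24 measured T cell partners and targets of GATA3, 20 were 2-fold lower or more in the Cre library and 0 higher. The list had a median log2 ratio of -5.35. Most of the lower genes were below 1 FPKM in the Cre library and passed the minimum through the control library. The median was -5.26 with no minimum and -3.68 with a pseudocount of 5. Short of 2-fold were Zbtb7b at 0.18, Id3 at -0.05, Notch1 at -0.75 and Runx1 at -0.85. The recombinase gene Rag1 had 0.832 FPKM in the Cre library and 436 FPKM in the control library. The coreceptor genes Cd8b1 and Cd8a and the kinase gene Lck had log2 ratios of -7.81, -7.69 and -7.44. The ratio of Gata3 was 2.44 above the list median. With FPKM + 1 the control value limits how low a ratio can be, and many T cell genes had far higher control values. These ratios therefore do not show whether Gata3 differed less than a typical T cell gene. Summed over the list, expression was 207 FPKM in the Cre library and 3599 FPKM in the control library, and no gene was listed at 0. Of these sums Id3 alone held 116 FPKM in the Cre library and 119 FPKM in the control library. The T cell receptor subunit gene Cd3e had 0.239 FPKM in the Cre library and 113 FPKM in the control library. Foxn1, the factor that defines thymic epithelium, had 0.00596 FPKM in the Cre library and 2.34 FPKM in the control library. The summed level of thymic epithelium genes was 71.1 FPKM in the Cre library and 663 FPKM in the control library. Krt8, which the epicardial list also holds, had 50.6 FPKM of the Cre sum and 102 FPKM of the control sum. Of the 11 measured thymic epithelium genes, 8 were lower and 0 were higher, and their median of -2.87 was close to the ratio of Gata3. With a pseudocount of 5 the median was -1.47. Prss16, which encodes a thymic protease, had 0.381 FPKM in the Cre library and 198 FPKM in the control library. Ccl25, Tbata and Psmb11 had log2 ratios of -5.62, -5.38 and -3.27. In bulk tissue, fewer cells of a type and less RNA per cell cannot be told apart. The part that thymus tissue in the samples may have in the level of Gata3 was not tested.

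Among genes of type 2 lymphoid cells, where Gata3 also acts, the size of the difference depended on the minimum. Of 8 measured genes 5 were 2-fold lower or more and 0 higher, with a median of -1.81. All 5 passed the minimum through the control library, and the median was -0.55 with no minimum, -0.67 with a pseudocount of 5 (2 lower) and -0.25 with a minimum of 5 FPKM (1 lower). The chemokine receptor gene Ccr4 had 0.0161 FPKM in the Cre library and 7.42 FPKM in the control library. Il17rb had a log2 ratio of -2.70, Il7r of -2.03 and Il2ra of -1.99. The cytokine genes Il4 and Il5, textbook targets of GATA3, were below 0.2 FPKM in both libraries. Each of 16 cell cycle genes was also 2-fold lower or more (median -3.38), among them Top2a at -5.03, Mki67 at -4.71, Rrm2 at -4.35 and Birc5 at -4.27. The 3 genes nearest to Gata3 in level in both libraries were Kif18b, Ankle1 and Kntc1, at distances of 0.05, 0.09 and 0.12 in log2(FPKM + 1). Over 2 libraries such a likeness says little, and 17 genes lay within 0.25 of Gata3.

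Blood partners of GATA1 and GATA2 were lower or close to equal expression. Of 14 measured partners 6 were 2-fold lower or more and 0 higher, with a median of -0.92. Myb, a factor of immature blood cells and thymocytes, had 6.97 FPKM in the Cre library and 164 FPKM in the control library. Gfi1 had a log2 ratio of -4.30, and Tcf12 and Tcf3, which the T cell list also holds, had -1.69 and -1.47. Tal1, Lmo2, Lyl1 and Erg, which join Gata2 in blood stem cells and endothelium, had 0.33, 0.30, 0.18 and 0.40. They were named after their values were seen, and none of them passed the 2-fold rule. These are the 4 measured partners above equal expression, and 10 lay below it. Below it were also Fli1 at -1.17, past 2-fold, Ldb1 at -0.98 and Runx1 at -0.85.

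Cell types known to use Gata2 were compared with it. Endothelial genes were above equal expression in 19 of 19, with 0 past 2-fold and a median of 0.41, which lay 0.11 below the ratio of Gata2. With the tissue-list centring, which uses these genes, it was -0.02. Plvap, Cdh5, Robo4 and Sox18 had log2 ratios of 0.97, 0.86, 0.80 and 0.66. Of 9 measured mast cell genes 6 were 2-fold higher or more and 0 lower, with a median of 1.08. With a pseudocount of 5 and with the tissue-list centring 1 was higher, with medians of 0.75 and 0.65. The protease gene Cma1 had 17.5 FPKM in the Cre library and 6.25 FPKM in the control library, and Tpsb2, Hdc and Tpsab1 had log2 ratios of 1.28, 1.13 and 2.70. Tpsab1 has a close copy in the genome, so its value is uncertain. Of 7 measured autonomic neuron genes 3 were higher and 0 were lower, with a median of 0.91, led by Npy at 7.06 FPKM in the Cre library and 0.963 FPKM in the control library. The median was 0.51 with no minimum, and it was 0.39 with a pseudocount of 5 and 0.48 with the tissue-list centring, where 1 gene was higher. A minimum of 5 FPKM also left 1 higher. Ddc, Stmn2 and Gap43 had 1.41, 1.24 and 0.91. Which of these cells the Gata2 transcripts came from was not tested. The genes nearest to Gata2 in level were Ext1, Tspyl2 and Scrn3, and 225 genes lay within 0.25.

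Genes of cells that use Gata1 were few. Among red blood cell genes 5 of 8 in the table were measured, with 1 at least 2-fold higher, 0 lower and a median of -0.80 that became 0.08 with no minimum. With the tissue-list centring 3 were lower and 0 higher. The globin genes Hba-a1 and Hbb-b2, which have near-identical copies, had log2 ratios of -0.80 and -0.98, and Alas2, the first enzyme of haem synthesis in these cells, had -0.85. Spna1, the alpha spectrin gene, was the higher one, at 1.26. Epor, a textbook GATA1 target, had 0.677 FPKM in the Cre library and 0.574 FPKM in the control library. One platelet gene was measured, Pf4, at 51.1 FPKM in the Cre library and 41.1 FPKM in the control library. None of the 5 eosinophil and basophil genes in the table was measured, the highest being at 0.524 FPKM in the Cre library and 0.483 FPKM in the control library.

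Gata4 and Gata6 were set beside the cardiac factors with which they share target genes. Of 19 measured partners 5 were 2-fold higher or more and 1 was lower, 16 lay above equal expression, and the median was 0.47. With the tissue-list centring the median was 0.04, with 1 higher and 3 lower, and with a pseudocount of 5 none passed 2-fold in either direction. As reported, the ratios of Gata4 and Gata6 lay 0.48 and 0.46 above the partners' median, and that of Zfpm2 0.04 above it. Myocd, a coactivator of muscle genes, had 6.97 FPKM in the Cre library and 1.44 FPKM in the control library. Mef2c had a log2 ratio of 1.02, and Klf13, which binds GATA4, was the lower one at -1.13. The homeobox factor gene Nkx2-5 had 18.8 FPKM in the Cre library and 11.0 FPKM in the control library, and its ratio of 0.72 was below those of Gata4 and Gata6. Tbx5 had 0.95, the same as Gata4 to 2 decimals.

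Textbook cardiac targets of GATA4 to GATA6 had a median log2 ratio of 0.97, close to the ratios of both factors. Of 23 measured targets 11 were 2-fold higher or more and 0 lower, and 20 lay above equal expression. With the tissue-list centring 6 were higher and 2 lower, with a median of 0.54. Kcne1, for a subunit of a potassium channel, had 9.96 FPKM in the Cre library and 0.711 FPKM in the control library. Slc8a1, the sodium-calcium exchanger gene, had 24.4 FPKM in the Cre library and 6.09 FPKM in the control library. The muscarinic receptor gene Chrm2 and the myosin gene Myh7 had log2 ratios of 1.70 and 1.61. The 3 targets below equal expression were Bcl2 at -0.86, Cdk4 at -0.76 and Bmp4 at -0.04. Whether the levels of these targets follow those of the factors was not tested. Nppa and Myh6 were in this list too, but their comparison was not completed in the authors' deposited table.

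**Figure D4:**
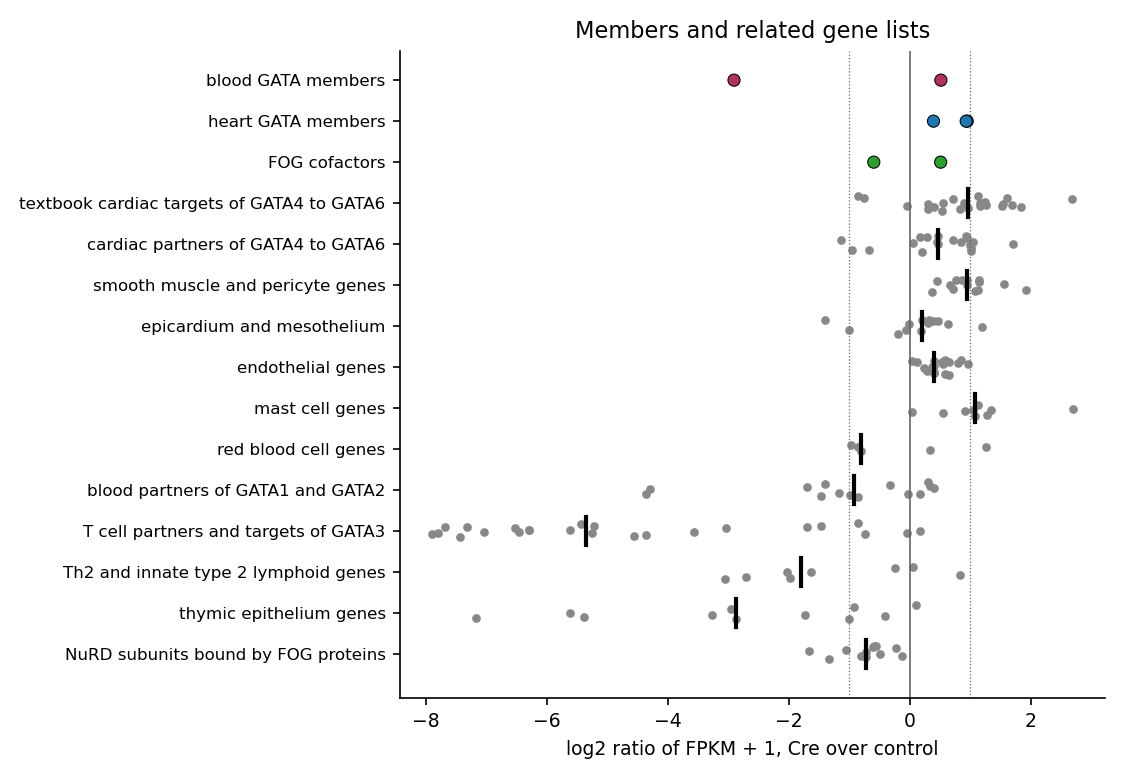
Log2 ratios of FPKM + 1, Cre over control, of the measured GATA and FOG genes (coloured) and of the measured genes of related lists (grey points, black bars at the medians). Dotted lines mark 2-fold. The T cell genes have a median of -5.35, below Gata3 at -2.91, and the cardiac targets a median of 0.97, beside Gata4 and Gata6.

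Other tissues that express Gata4, Gata5 or Gata6 were also compared. Smooth muscle and pericyte genes, where Gata6 is the main GATA factor, had a median of 0.94, 0.01 above the ratio of Gata6, with 6 of 14 at least 2-fold higher and 0 lower. The count was 3 with a pseudocount of 5 and 2 with the tissue-list centring, where the median was 0.51. Rgs5, a pericyte gene, had 99.3 FPKM in the Cre library and 25.4 FPKM in the control library, and Abcc9, Mylk and Myh11 had log2 ratios of 1.57, 1.15 and 1.14. Lung epithelium, which uses Gata6, had a median of 1.99 with 12 of 14 higher and 0 lower. Sftpc, a surfactant gene, had 90.5 FPKM in the Cre library and 0.248 FPKM in the control library, and the ratios of Bpifa1, Sftpb and Scgb3a1 were 3.62, 3.11 and 2.71. The summed level of the lung list was 18681 FPKM in the Cre library and 4216 FPKM in the control library, and its part in the level of Gata6 was not tested. Epicardial and mesothelial genes, beside Gata5, had a median of 0.21 with 1 of 13 higher and 2 lower. With the tissue-list centring, which uses these genes, it was -0.22. Krt19 had a ratio of 1.20 and Msln of 0.64, while Krt18 and Krt8, which thymic epithelium also expresses, were the lower ones, with Krt18 at -1.41 and Krt8 at 50.6 FPKM in the Cre library and 102 FPKM in the control library. Of 7 measured endocardium and valve genes none passed 2-fold, and the median was 0.02 (-0.41 with the tissue-list centring), with Plvap at 0.97, Npr3 at 0.37, Klf2 at -0.50 and Nfatc1 at -0.95. The genes nearest in level were Pi15, Arhgap21 and Peg3 for Gata4, with 92 genes within 0.25, and Emilin2, Mtus2 and Dst for Gata6, with 66. For Gata5 they were 1700055N04Rik, Nr2f1 and Clcn1, with 238 genes within 0.25.

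Subunits of NuRD, the complex that FOG proteins recruit, were below equal expression in 13 of 13. Of these 3 were 2-fold lower or more and 0 higher, with a median log2 ratio of -0.72, close to that of Zfpm1. With the tissue-list centring 9 were lower (median -1.15, Zfpm1 at -1.02), and with the same upper quartile or a pseudocount of 5 there were 2. Hdac1, a histone deacetylase, had 28.7 FPKM in the Cre library and 93.6 FPKM in the control library. Mta2 and Rbbp4 had log2 ratios of -1.33 and -1.06, and the remodelling ATPase gene Chd4 had -0.80. The Zfpm2 transcript thus differed in the opposite direction to the transcripts of these subunits. The level of the complex itself is not known from these values. The nearest genes in level were Slc10a7, Zbtb24 and Zkscan6 for Zfpm1, with 221 genes within 0.25, and Il17d, E030011O05Rik and Fam13c for Zfpm2, with 243. Other genes with a GATA-type zinc finger, 5 of which are NuRD subunits, had a median of -0.57, with 1 of 8 lower, Mta2, and 0 higher (4 lower with the tissue-list centring). Gatad2b, Mta1 and Gatad2a had -0.72, -0.60 and -0.59.

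The ratios of Gata4 and Gata6 depended on the scale by which the libraries are made comparable. With the upper quartiles of both libraries made equal they were 1.16 and 1.15, both past 2-fold, and with the tissue-list centring they were 0.52 and 0.51. The same change of scale moved the median of all genes from -0.07 to 0.13 and to -0.50. Gata3 was below -1 on all 6 scales tried, between -4.34 and -1.40. Gata2, Gata4, Gata6 and Zfpm2 were above 0 and Gata1 and Zfpm1 below 0 on all 6.

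**Figure D5:**
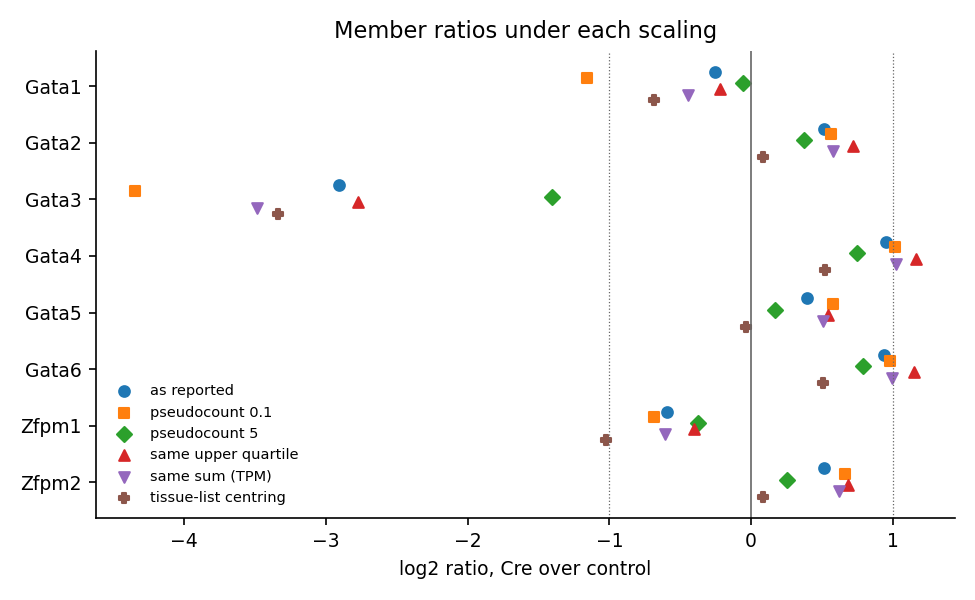
Log2 ratio, Cre over control, of each member as reported and with 2 other pseudocounts and 3 other scalings of the libraries. Dotted lines mark 2-fold. Gata3 stays left of -1 throughout, Gata4 and Gata6 lie on both sides of 1, and Gata5 crosses 0 once.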

How the data were processed

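RNA of the sinoatrial node was sequenced, and 2 libraries were used, 1 per genotype. The submitters' processing notes name TopHat, Bowtie, Cufflinks and the genome build mm9. For tool versions, annotation, strand use and library scaling nothing is given in the sources used here. The authors deposited 1 FPKM value per gene and library, and, in the same rows, p-values, q-values, a test score and a log2 fold change. The unit FPKM was taken from the column layout, per the file headers. The deposited log2 fold change was recomputed from the FPKM values (Cre over control) to within 1.38e-05. In FPKM, abundant transcripts lower all other values of a library. FPKM summed to 485189 in the Cre library and 497407 in the control library.

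The table has 15967 rows. In 2 of them (Nppa and Myh6) the comparison was not completed, and they were left out. Symbols turned into dates (21) were restored by RefSeq accession, and 29 small-RNA genes were not counted as measured. Log2 ratios of FPKM + 1 were computed with Python 3.11.15 and pandas 2.3.3. The code was tested on simulated large changes in well-expressed genes, which does not cover low values. The genes named are all 8 members, Arid1a, up to 4 measured genes with the largest absolute ratio in each of 24 other lists, and the 3 genes nearest to each measured member in log2(FPKM + 1) of both libraries, by Euclidean distance. One gene that this rule names is not reported here. Other genes (sex, node, thymus and T cell genes, Nkx2-5, Tbx5, blood partner genes, cardiac targets below equal expression, Epor, Il4 and Il5) were named with their values known. The members and lists were chosen with earlier results of these data known, and some lists share genes. A planned comparison of the protein sequences was not made, since no protein table was used here.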

Additional observations from a re-analysis of the deposited data

How the results depend on the processing

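With 1 library per genotype no replicate could be left out. No paired analysis was possible because each genotype has 1 library and the labels give no replicate numbers. The difference of the heart and blood medians, 2.13 as reported, was 2.86 with a pseudocount of 0.1, 1.26 with a pseudocount of 5, 2.45 with equal FPKM sums (TPM), 1.19 with no minimum and 0.43 with a minimum of 5 FPKM, where the measured blood members were reduced to Gata2 and their median turned from -1.19 to 0.52. It was 2.18 with the same upper quartile. The count of members at least 2-fold higher, 0 as reported, was 1 with a pseudocount of 0.1 (Gata4), 2 with the same upper quartile (Gata4 and Gata6) and 1 with TPM (Gata4). The count at least 2-fold lower, 1 as reported, was 2 with the tissue-list centring (Gata3 and Zfpm1) and 0 with the minimum of 5 FPKM, which leaves Gata3 out. Across all genes, 36.9% of the differences past 2-fold were towards the Cre library as reported (815 higher, 1396 lower). The same upper quartile gave 54.4% (1297 and 1086), the pseudocount of 5 gave 22.8% (238 and 804) and the tissue-list centring gave 9.36% (313 and 3032). The pseudocount of 0.1 gave 1262 higher and 1691 lower. The read depth is unknown, and for Gata1, below 1 FPKM in both libraries, no ratio is firm.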

Other observations

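The remaining lists of other cells of the tissue gave these values. Fibroblast and adipocyte genes are among the genes of the tissue-list centring. Fibroblast and matrix genes had a median log2 ratio of 0.54, with 2 of 22 at least 2-fold higher and 0 lower (0.11, with 0 higher, under that centring). Pdgfra and Col6a3 were the higher ones, at 1.24 and 1.21, and Fn1 and Ddr2 had 0.98 and 0.88. Adipocyte genes had a median of 0.51 (0.08 under that centring) with 1 of 13 higher, Plin4 at 1.48, and 1 lower, Elovl3 at -1.25, with Pnpla2 at 0.99 and Plin1 at 0.78. Macrophage genes had a median of 0.28 (-0.15 with the tissue-list centring), with 1 of 13 higher, Cd14 at 1.04, and 1 lower, Cd68 at -1.01. Itgam had 0.84 and Aif1 -0.72. For 4 measured B cell genes the median was 0.51 (0.08 under that centring, 0.05 with a minimum of 5 FPKM), with Ebf1 higher at 1.21 and Cd79b lower at -1.11, and with Ms4a1 and Cd79a at 0.51 each. Skin and parathyroid genes had a median of -0.03 over 3 measured genes, with Krt15 higher at 2.01, Trp63 at -0.73 and Krt10 at -0.03.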
